A study of Mus musculus with 2 samples.

Results

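Migratory mature dendritic cells were read out in CD45+ cells sorted from mouse liver tumours, in 2 single-cell RNA libraries. A barcode was counted as such a cell when it held at least 1 UMI (unique molecular identifier, a tag that marks an RNA molecule) of Fscn1, at least 2 of Ccr7 and at least 3 of H2-Ab1, with none of Cd3d, Cd3e and Cd3g and at most 2 of C1qa, C1qb and C1qc together. These limits were set on the same UMI counts that are described here, so the levels of these genes are given as a description. In all, 168 cells met the rule among 21998 kept cells of 23456 barcodes, 78 of them from the DMSO library and 90 from STK.

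Each library carries the same batch label, and both came from MYC-ON mice, a genotype label carried by treated and control animals alike, with hepatocellular carcinoma, after gavage with either DMSO, the solvent, or STK. Live cells were sorted on the leukocyte marker CD45. The labels say no more of STK, of the promoter that drives MYC, or of the number, age and sex of the animals behind a library. The series title names SOAT1, a cholesterol esterifying enzyme of the endoplasmic reticulum, and the receptor GPR132 as its subject. Each group is 1 library, so no difference below has a replicate check, no test was made, and all intervals cover counting error only.

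Dendritic cells take up antigen in tissue, and when activated they mature: they stop capturing antigen, raise costimulatory molecules and the chemokine receptor CCR7, and follow CCL19 and CCL21 into lymphatics and the T cell zones of lymph nodes. The actin bundling protein fascin, encoded by Fscn1, shapes their dendrites and is needed for this movement. In tumours, cells in this state carry both T cell activating products such as IL-12 and restraining ones such as PD-L1, and draw CCR4-bearing T cells, regulatory T cells among them, through CCL17 and CCL22.

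The kept cells held 78065924 UMIs in DMSO and 79681844 in STK, of which the members held 653043 and 825779. A DMSO member held 1066 to 36449 UMIs with a median of 7233, and an STK member 1323 to 38869 with a median of 8386. Cells with Y-linked RNA and cells with Xist RNA, the transcript of the inactive X chromosome, were found in each library: 42 DMSO members carried Y-linked RNA alone and 5 carried Xist alone, against 19 and 38 STK members. RNA of both kinds was found in 0 DMSO and 3 STK members, and of neither kind in 31 and 30. Over all kept cells, Xist-only cells were 18.8% of the cells with RNA of a single sex in DMSO and 74.0% in STK, so sex and treatment cannot be told apart over all members, and ratios within male members are given beside the main results. No member barcode occurred among the members of both libraries, while 203 barcode sequences occurred in both libraries overall.

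RNA of liver or tumour cells differed between the libraries in these members. The 10 hepatocyte or tumour markers, among them Alb, Afp and Apoa1, summed to 4199 CPM (UMIs per 1000000 UMIs of the members) in DMSO and 1198 CPM in STK, and all 10 had a UMI in each. The members with at least 20 such UMIs, 5 in DMSO and 4 in STK, held 92.1% and 64.8% of that RNA and 18.97% and 8.70% of all member UMIs. Summed macrophage markers were at 518 and 242 CPM and summed monocyte markers at 714 and 335 CPM, below their 2655 and 1680 CPM in DMSO and 3340 and 1723 CPM in STK over all kept cells. The part of this RNA in the results was not tested, and values without those members are given where they differ. Haemoglobin RNA lay in 1 DMSO cell, with 893 of the 895 erythroid marker UMIs, and 119 of the 123 NK marker UMIs of STK lay in 1 cell. All 5 erythroid markers were at 0 in STK, and the NK genes Ncr1, Klrb1c, Gzmb and Prf1 were at 0 in DMSO.

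The fixed markers outside the rule had a UMI in most members of both libraries. They were chosen with earlier results of these data known, so this is a description and not a check of the label. Besides Fscn1 and Ccr7, which the rule used, the fixed markers Ccl22, Cacnb3, Il4i1 and Socs2 had a UMI in 59.0%, 76.9%, 87.2% and 75.6% of the DMSO members and in 72.2%, 80.0%, 90.0% and 77.8% of the STK members. T cells of the same libraries, taken as cells with at least 3 Cd3 UMIs and none of H2-Ab1, had a UMI of Ccl22, Cacnb3 and Il4i1 in at most 0.632% of cells and of Socs2 in 6.01% and 5.42%, at medians of 3643 and 3529 UMIs per cell. The dendritic cell genes Flt3, the receptor for the growth factor of these cells, and Zbtb46, a transcription factor of the conventional lineage, were at 132 and 67.4 CPM in DMSO and 126 and 89.6 CPM in STK. Neutrophil markers had 12 UMIs in DMSO and 2 in STK, and the T cell markers Cd3d, Cd3e and Cd3g were at 0 by the rule. B cell markers summed to 115 CPM in DMSO and 148 CPM in STK members, above their 56.0 and 68.7 CPM over all kept cells. Of these B cell marker UMIs, 57.3% lay in 1 DMSO member and 71.3% in 3 STK members, each with at least 20.

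Members at the Ccr7 limit had little RNA of the markers outside the rule. The 4 DMSO and 4 STK members with exactly 2 Ccr7 UMIs had no UMI of Ccl22 or Cacnb3. Just outside, the 1 DMSO and 8 STK cells with a single Ccr7 UMI had Ccl22 at 0 and 45.7 CPM and Il4i1 at 1051 and 54.8 CPM. Members with 2 to 9 Ccr7 UMIs, 15 in DMSO and 9 in STK, carried the monocyte gene Ly6c2 at 966 and 38.0 CPM, the cDC2 gene Cd209a at 426 and 932 CPM and the macrophage and monocyte gene Lyz2 at 104 and 2663 CPM. Ccl22 was at 882 and 38.0 CPM in these members, and Il4i1 at 395 and 57.1 CPM. The other 63 and 81 members had Ccr7 at 5175 and 6965 CPM, Ly6c2 at 71.8 and 31.0 CPM, Cd209a at 82.6 and 62.1 CPM and Lyz2 at 832 and 68.5 CPM. Their Ccl22 was at 789 and 1525 CPM and their Il4i1 at 798 and 1155 CPM, so Ccl22 was no lower near the limit in DMSO. On the H2-Ab1 side, the 6 DMSO and 3 STK cells left out with 2 H2-Ab1 UMIs had Ccr7 at 9694 and 6884 CPM, and the 158 and 265 cells left out for want of Fscn1 had it at 1810 and 1314 CPM.

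The members were 0.699% of kept cells in DMSO (95% exact Clopper-Pearson interval 0.553 to 0.872) and 0.830% in STK (0.668 to 1.02). The ratio of 1.19 had a counting interval of 0.866 to 1.63, so the shares differed by less than counting error. Within male cells, 42 of 4439 DMSO cells and 19 of 1621 STK cells were members, a ratio of 1.24 (0.680 to 2.18). Among all dendritic cells gated here, that is the members and both conventional gates described next, the members were 10.4% of 747 in DMSO and 10.3% of 878 in STK.

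Both conventional subsets served for comparison, since mature cells arise from both. cDC1 present antigen to CD8 T cells and cDC2 mainly to CD4 T cells. The cDC1 gate (181 and 284 cells) asked for at least 2 UMIs of Xcr1 and Clec9a, and the cDC2 gate (488 and 504 cells) for none of these and at least 2 of Cd209a, Clec10a and Mgl2, with the same limits on H2-Ab1, Cd3 and C1q RNA. Many cells in these gates carried Siglech, a defining gene of plasmacytoid dendritic cells: 44.2% and 53.9% of the cDC1 gate and 35.9% and 36.9% of the cDC2 gate, against 2 members in each library. Values without the Siglech cells are therefore given for the comparisons with the gates below. The share of members among gated dendritic cells above counts the Siglech cells. Without them the cDC1 gate held 101 DMSO and 131 STK cells and the cDC2 gate 313 and 318. The members were chosen by their UMIs, and the contrast with these gates is a description.

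The genes furthest above the conventional gates included both migration genes of the rule. Fscn1 (ENSMUSG00000029581, GRCm38 chromosome 5, 142960343 to 142973185, plus strand) was at 2779 CPM in DMSO members and 3244 CPM in STK members, against 2.21 to 4.74 CPM in the 4 conventional gates. Ccr7 (ENSMUSG00000037944, chromosome 11, 99144196 to 99155077, minus strand) was at 4517 and 6566 CPM, against 66.5 to 123 CPM. Of genes outside the rule, Cacnb3, a calcium channel beta subunit, was at 331 and 415 CPM against at most 2.27 CPM, at least 146 times its level in either gate of the same library. Apol7c, an apolipoprotein L gene, was at 554 and 551 CPM against at most 4.54 CPM, at least 122 times higher, and it had a UMI in only 32 DMSO and 40 STK members.

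The other genes furthest above the conventional gates fell into signalling, membrane and antigen presentation roles. Tnfrsf4 (OX40, a costimulatory receptor of the TNF family) was at 168 and 299 CPM, at least 105 times above the gates. Socs2, which restrains cytokine signalling through STAT5, was at 334 and 325 CPM, and Adcy6, an adenylyl cyclase, at 110 and 125 CPM. Nudt17, a nudix hydrolase gene, Zmynd15, a zinc finger gene, Lad1, which encodes ladinin, and Anxa3, which encodes annexin A3, were at 216, 283, 184 and 292 CPM in DMSO members and at 343, 541, 233 and 446 CPM in STK members. Mmp25, a membrane-anchored metalloprotease, was at 159 and 212 CPM. The MHC genes H2-Eb2, a class II beta chain, and H2-M2, a non-classical class I gene, were at 320 and 225 CPM in DMSO and 304 and 291 CPM in STK. Clu, a secreted chaperone, was at 116 and 122 CPM, with 40.8% and 32.7% of its UMIs in 1 cell. The smallest ratio to any gate among these 15 genes was 24.8, for Mmp25. Against the gates without Siglech cells it was 17.2, again for Mmp25, and the least ratios of Cacnb3, Apol7c and Tnfrsf4 were 103, 86.7 and 59.0.

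**Figure D1:**
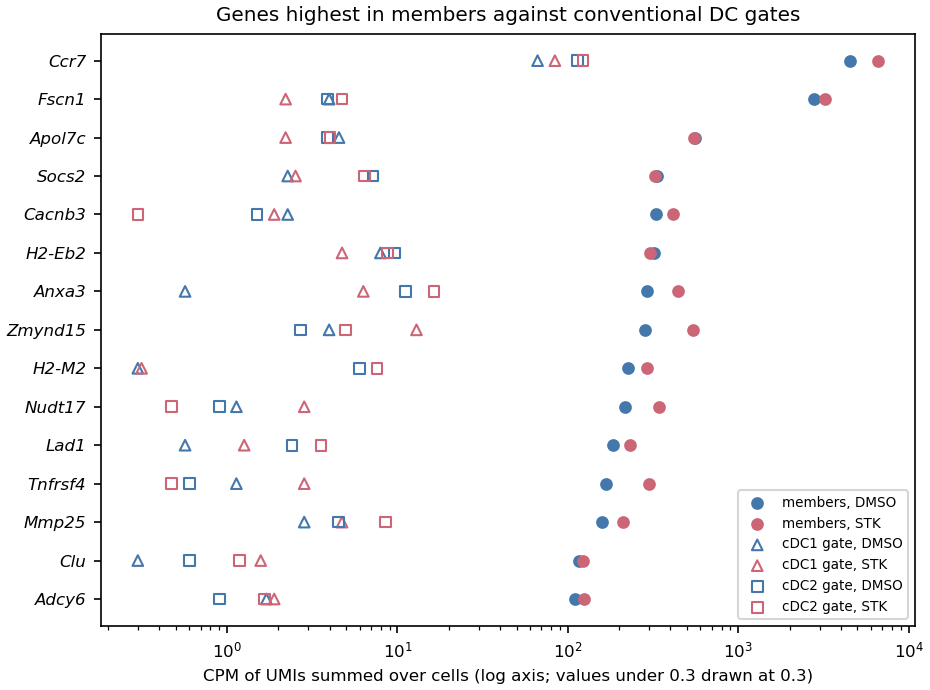
Level of the 15 genes furthest above the conventional gates, in CPM of UMIs summed over cells on a log axis, with members as filled circles, the cDC1 gates as triangles and the cDC2 gates as squares (blue DMSO, red STK; values under 0.3 are drawn at 0.3). The members of both libraries lie to the right of all 4 gates for each gene, with Cacnb3 at 331 and 415 CPM against at most 2.27.

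Other genes were lower in the members than in the conventional gates. Against the gates without Siglech cells, the 10 genes furthest below included Alox5ap, which serves leukotriene synthesis, at 142 and 153 CPM in members and 950 to 1057 CPM in the gates. Itgb7, a gut-homing integrin chain, was at 41.3 and 37.5 CPM against 214 to 250 CPM. Tgfbi, Sla, Olfm1, Myo1f, Tm6sf1, Zfp36l2, Naaa and Ckb were also among them. Naaa is a cDC1 gene and stood at 18.4 and 29.1 CPM in members against 1018 and 858 CPM in the cDC1 gates. Against the gates as they stand, the 10 lowest were led by Siglech, Klk1, Ccr9 and Lair1, genes of the plasmacytoid cells in those gates, so that list describes the gates as much as the members.

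The NF-kB subunit Relb, which drives dendritic cell maturation, was at 674 CPM in DMSO and 660 CPM in STK members, at least 8.04 times the level in the gates without Siglech cells. Traf1, an adaptor of TNF receptor signalling, was at 957 and 1041 CPM, at least 2.82 times higher. Cd83, a maturation marker, was at 1724 and 1634 CPM and at least 1.49 times higher, and Cd86 was at 158 and 208 CPM, 1.06 to 1.48 times the gates. Cd274, which encodes PD-L1, was at 260 and 390 CPM, at least 4.30 times higher. Some products linked to this state elsewhere had no UMI in either library: Lamp3, Ccl19, Ido2, Il10 and Itgb8. For a count of 0, the fixed floor of 3 UMIs corresponds to 4.59 CPM in DMSO and 3.63 CPM in STK, and it is not an interval limit.

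Levels varied widely among the members of a library. The UMI count of Ccr7 per cell ran from 2 to 100 with a median of 35 in DMSO and from 2 to 151 with a median of 62 in STK. Fscn1 ran from 1 to 109 (median 18.5) and from 1 to 165 (median 22). The DMSO ranges lay wholly within those of STK. Cytokine RNA was concentrated in a part of the cells: Il12b, the p40 chain of IL-12 and IL-23, had a UMI in 25 of 78 and 41 of 90 members, and the top 5 cells held 65.7% and 41.6% of its UMIs. Ccl17 had a UMI in 22 and 29 members, with 67.4% and 53.7% in the top 5. Gpr132 was spread evenly, with 20.8% and 13.7% in the top 5.

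**Figure D2:**
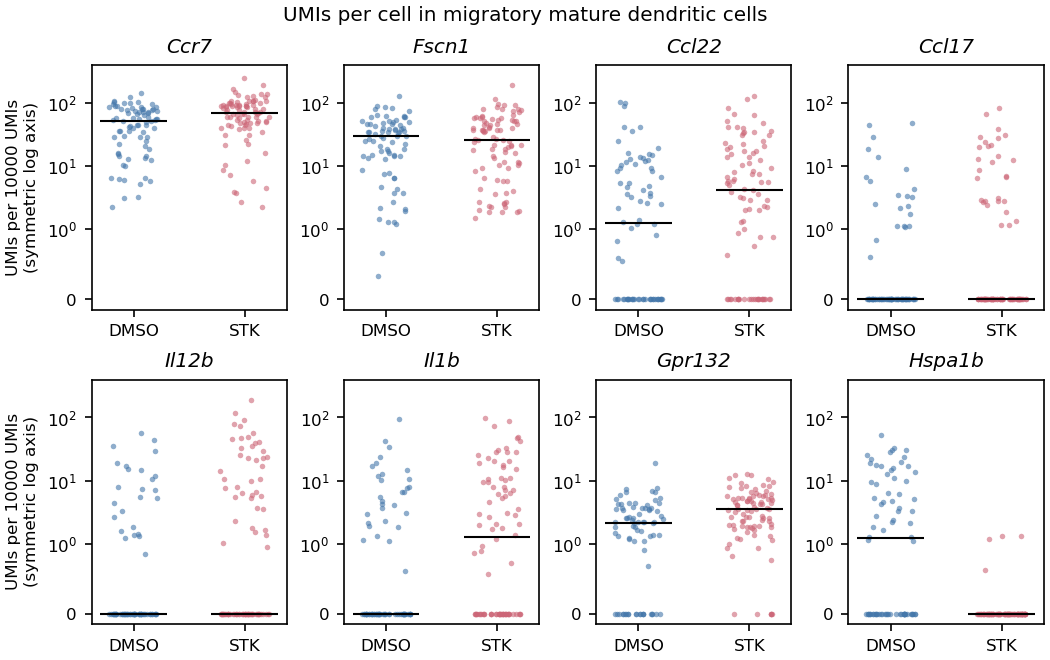
UMIs per 10000 UMIs of the cell in each member for 8 genes, on an axis that is linear near 0 and logarithmic above, with each point a cell (blue 78 DMSO, red 90 STK) and the black line the median. Ccr7 and Fscn1 were present in every member, Il12b in 25 and 41, Ccl17 in 22 and 29, and Hspa1b in 41 DMSO and 4 STK members.

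The Il12b-bearing members shared other genes. Splitting the members by Il12b gave 19 DMSO and 36 STK cells with at least 2 UMIs, 6 and 5 cells with 1, and 53 and 49 cells with none. Cst3, the protease inhibitor cystatin C and an abundant conventional dendritic cell product, was at 27471 CPM in the Il12b cells and 8018 CPM in those at 0 in DMSO. In STK it was at 27981 and 14269 CPM. Id2, a factor of the conventional lineage, was at 1073 against 551 CPM and at 1196 against 698 CPM. Irf8, the factor that specifies cDC1, was at 512 against 313 CPM in DMSO and 1238 against 493 CPM in STK. Ccl22 was at 1144 against 546 CPM and at 1997 against 1039 CPM. In DMSO 1 cell held 34.2% of the Ccl22 UMIs of the Il12b cells. Ccl17 was at 258 against 135 CPM and at 781 against 413 CPM. Without the top cell of each subset Ccl17 was at 148 against 103 CPM and at 453 against 362 CPM. A Ccl17 UMI was found in 36.8% against 24.5% of these DMSO cells, but in 27.8% against 36.7% in STK.

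The opposite order was seen for Fabp5. Fabp5, a fatty acid binding protein, was at 3703 CPM in the cells without Il12b and 1326 CPM in the Il12b cells of DMSO, and at 2792 and 1748 CPM in STK. Apol7c was at 769 against 285 CPM in DMSO, but at 540 against 545 CPM in STK, so its direction was not shared. These cells were split after their values were seen, 1 cell held 29.8% of the Il12b UMIs of its DMSO subset, and the median UMI count per cell was 8850 in the Il12b cells and 6890 in those without in DMSO, and 7984 and 8423 in STK.

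**Figure D3:**
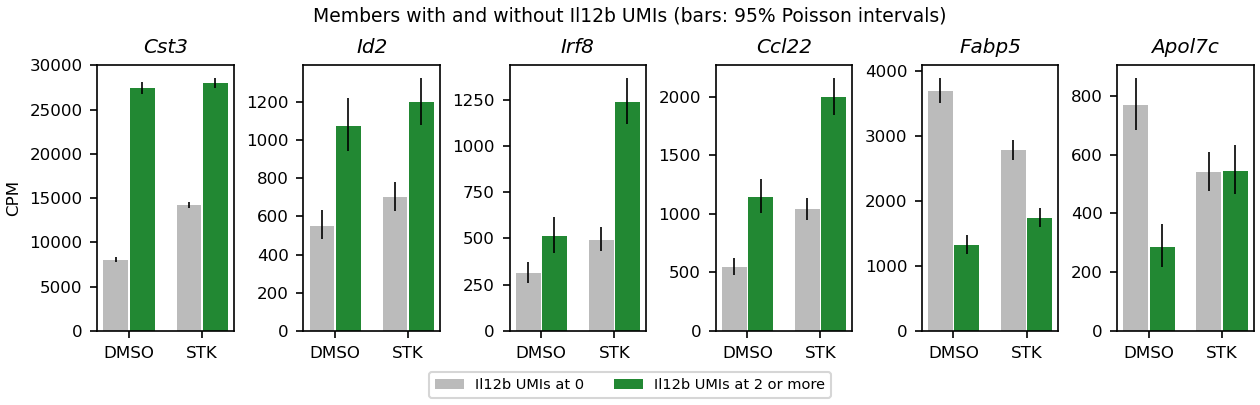
CPM of 6 genes in members with no Il12b UMI (grey) and with at least 2 (green), by library, with 95% Poisson intervals that cover counting error only. Cst3, Id2, Irf8 and Ccl22 were higher in the Il12b cells of both libraries and Fabp5 was lower, while Apol7c was lower in DMSO (285 against 769 CPM) and level in STK.

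Markers of the conventional subsets were found in part of the members. By UMIs of 6 cDC1 and 5 cDC2 markers, 14 DMSO and 13 STK members leaned to cDC1, 35 and 36 to cDC2, 2 and 4 were equal, and 27 and 37 had no UMI of either list. Il12b was at 1272 CPM in the cDC1-leaning and 201 CPM in the cDC2-leaning DMSO members, and at 1331 and 565 CPM in STK. Single cells weighed on this: 1 cell held 46.0% of the Il12b UMIs of the cDC1-leaning DMSO members, which were at 766 CPM without it, and 35.1% of those in STK, at 973 CPM without it. With at least 2 UMIs of a list asked for, 9 DMSO and 11 STK members were cDC1-marked and 22 and 24 cDC2-marked, with 3 and 6 cells in both sets. Leaving out the shared cells, Il12b was at 1653 CPM in 6 cDC1-marked and 250.2 CPM in 19 cDC2-marked DMSO members, and at 645 and 165 CPM without the top cell of each set. In 5 and 18 STK members it was at 1087 CPM (Poisson interval 859 to 1357) and 943 CPM (803 to 1100), so the intervals overlapped, and without the top cells at 665 and 646 CPM. With the shared cells kept in both sets the STK values were 490.0 and 616 CPM, the other way round. Between these leanings Ccl17 had the opposite order, at 127 and 310 CPM in DMSO and at 0 and 753 CPM in STK. However, 1 cell held 85.7% of the 21 Ccl17 UMIs of the cDC1-leaning DMSO members. In the split by Il12b above, Ccl17 was higher in the Il12b cells of both libraries. Without the shared cells it was at 35.2 and 438 CPM in the marked DMSO members and at 0 and 1391 CPM in those of STK, where 1 cell held 45.6%. Cst3 followed Il12b, at 27027 and 11474 CPM in DMSO and 26242 and 17466 CPM in STK. Spearman's rho was taken across members thinned to 2000 UMIs each (74 DMSO and 88 STK cells, with 4 and 2 shallower ones left out). Between Cst3 and Il12b it was 0.39 and 0.36, and between Ccr7 and Fscn1 0.49 and 0.48. For other genes of the Il12b split, rho with Il12b was weaker. It was 0.20 and 0.10 for Ccl22, -0.16 and -0.15 for Fabp5 and -0.060 and 0.017 for Apol7c. Id2, Irf8 and Ccl17 were not included. The cells share a library, and these values are descriptions.

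Between the treatments, 4124 genes had at least 40 UMIs over the members of both libraries. A gene was called higher in STK when its CPM ratio was at least 1.5 with a 95% counting interval (exact conditional binomial) that excluded 1, and lower by the mirror rule. By this, 254 genes (6.16%) were higher and 435 (10.5%) lower, with 111 and 206 past a fold of 2, and the median log2 ratio over all measured genes was -0.042. Without the 9 members rich in hepatocyte or tumour RNA, 188 were higher and 155 lower, so the share of higher among called genes went from 36.9% to 54.8%. Within male members it was 52.8%. Each list below is set against the 6.16% and 10.5% of all genes.

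The cytokine and chemokine list had the highest median of the lists described here: 7 of its 12 measured genes were higher and 2 lower, with a median log2 ratio of 0.73. The median lay between 0.51 and 0.96 under the alternatives tried, with 4 to 7 genes higher, and was 0.56 in male members. In the cDC1 and cDC2 gates the median of the same genes was -0.40 and 0.15, and 0.17 and 0.15 without the Siglech cells. The list holds 24 genes, and the other 12 had too few UMIs to be measured. The attractants of CCR4-bearing T cells came first by role. Ccl17 (ENSMUSG00000031780, chromosome 8, 94810453 to 94812036, plus strand) was at 198 CPM in DMSO and 541 CPM in STK, a ratio of 2.74 (2.25 to 3.36), and within male members 2.73 (2.0 to 3.75). The single-cell counts reached 26 UMIs in DMSO and 109 in STK, with a median of 0 in both, and 1 STK cell held 24.4% of that library's Ccl17.

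Ccl22, encoded near Ccl17 (chromosome 8, 94745590 to 94751699), was at 802 and 1430 CPM, a ratio of 1.78 (1.61 to 1.98). Its count per cell had a median of 1 in DMSO and 4 in STK and a maximum of 88 and 154, with broad overlap. In male members the order turned, with 0.816 (0.667 to 0.993), and in the 5 female DMSO and 38 female STK members it was 2.34 (1.67 to 3.38). The higher Ccl22 of STK thus did not hold within male members, whereas that of Ccl17 did.

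Il12b (ENSMUSG00000004296, chromosome 11, 44400063 to 44414033, plus strand) was at 508 CPM in DMSO and 1147 CPM in STK, a ratio of 2.26 (1.99 to 2.56). After thinning to 2000 UMIs, 24.3% of DMSO and 40.9% of STK members had an Il12b UMI, against 32.1% and 45.6% unthinned and 0.0927% and 0.112% of thinned T cells. Within male members the ratio was 1.21 (0.974 to 1.49), and its interval held 1. Other inflammatory cytokines went the same way. Il1b was at 423 and 880 CPM (ratio 2.08, interval 1.81 to 2.40), and 1.87 (1.5 to 2.32) in male members, and Il15, a survival factor for NK and memory CD8 T cells, was at 33.7 and 87.2 CPM, a ratio of 2.59 (1.59 to 4.38).

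Cxcl10, which attracts CXCR3-bearing T and NK cells, was at 84.2 and 704 CPM (8.35, interval 6.33 to 11.2), and 33.9 (16.7 to 80.1) in male members from 8 and 136 UMIs. Its ratio over all members was the highest of the genes ranked. These had at least 100 CPM and a UMI in at least 10% of members, in the library where the gene was higher. Sex-linked, hepatocyte, haemoglobin, mitochondrial, ribosomal, receptor and immunoglobulin segment and gene-model genes were not ranked. The Cxcl10 ratio rested on few cells: 7 DMSO and 18 STK members had a UMI, and the top 5 cells held 96.4% of the DMSO and 92.9% of the STK total. Without the deepest members of each library the ratio was 4.59. A Cxcl10 UMI was found in 8.97% and 20.0% of members and in 13.7% and 20.5% of T cells, so the share of members with a UMI was no higher than that background. Cxcl9, a second ligand of that receptor, went the other way at 389 and 240 CPM, a ratio of 0.616 (0.509 to 0.745), with 47.6% and 42.9% of its UMIs in 1 cell. Ccl5, a chemokine that attracts T cells, was at 3257 and 4993 CPM (1.53, 1.45 to 1.62) and 1.28 (1.18 to 1.40) in male members. Its level was at least 23.1 times that in the conventional gates and 22.5 times that without Siglech cells, while 70.5% and 82.2% of members and 76.9% and 81.0% of T cells, which are known to make it, had a UMI. Tnf, the tumour necrosis factor, was at 115 and 32.7 CPM, but 81.3% of its DMSO UMIs came from 1 cell, and without the deepest members the ratio was 1.01. Cxcl16, Ccl4 and Cxcl2 lay between the limits at 1.30, 0.875 and 0.80. The direction of Ccl4 was not stable: it was at 2.36 (1.78 to 3.16) without members holding RNA of other lineages, 1.40 without the deepest members, 1.31 without doublets and 3.16 in male members.

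**Figure D4:**
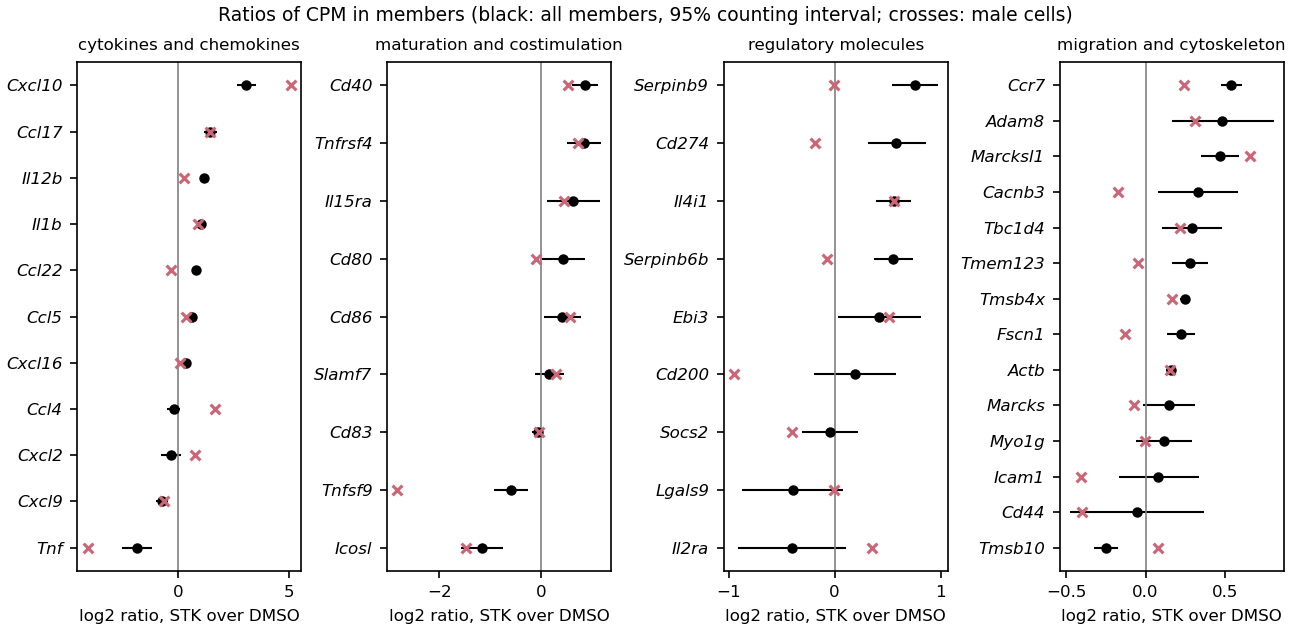
Log2 ratio of CPM, STK over DMSO, for every gene of 4 lists with at least 100 CPM in either library, as black points with 95% counting intervals, and the ratio within male members alone as red crosses. Cxcl10, Ccl17, Il1b and Cd40 lie to the right of 0 both in all members and in males, while Ccl22, Cd274 and Cacnb3 lie to the right in all members and to the left in males.

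Of the maturation and costimulation list, 4 of 12 measured genes were higher and 2 lower, with a median of 0.30. Without members holding RNA of other lineages none of the 12 was higher and the median was -0.024, after thinning none was higher (0.074), and in male members 1 was (-0.083). Cd40, the receptor through which helper T cells license dendritic cells, was at 283 and 510 CPM (ratio 1.80, interval 1.51 to 2.15), and 1.44 (1.10 to 1.89) in male members. Tnfrsf4 was at 168 and 299 CPM (ratio 1.78, interval 1.41 to 2.24), and 1.63 in males. Il15ra, which presents IL-15 to neighbouring cells, was at 75.03 and 115 CPM (1.53, 1.08 to 2.21), and 1.36 in males. Cd70, the ligand of CD27, was at 18.4 and 37.5 CPM (2.04, 1.02 to 4.37) from 12 and 31 UMIs, and its ratio within males was 0.222.

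Icosl and Tnfsf9 were the 2 lower genes of the list. Icosl, the ligand of ICOS, was at 217 CPM in DMSO and 96.9 CPM in STK, 2.24 times lower, with a UMI in 62.8% and 43.3% of members and 33.8% and 18.2% after thinning, against 1.20% and 0.748% of thinned T cells. Its ratio in male members was 0.361 (0.202 to 0.608). Tnfsf9, the ligand of 4-1BB, was at 253 and 167 CPM, 1.51 times lower, with a ratio of 0.141 in male members. The B7 genes Cd80 and Cd86 lay between the limits at 1.34 and 1.32, as did Cd83 at 0.947 and Slamf7 at 1.11.

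Regulatory molecules were mostly between the limits: 1 of 15 measured genes was higher and none lower, with a median of 0.19 that was -0.073 in male members. Serpinb9, the granzyme B inhibitor, was at 407 and 688 CPM (1.69, 1.46 to 1.96), though its ratio in male members was 0.997. Cd274 was at 260 and 390 CPM, a ratio of 1.498 just under the limit, and 0.881 (0.598 to 1.28) in males. Il4i1, an enzyme that consumes phenylalanine, was at 738 and 1085 CPM (ratio 1.47, interval 1.31 to 1.65), and 1.47 in male members too. Aldh1a2, which makes retinoic acid, was at 52.1 and 61.8 CPM (1.19, 0.754 to 1.89). Ebi3, a chain shared by IL-27 and IL-35, was at 135 and 180 CPM, and Cd200, a restraining ligand for myeloid cells, at 149 and 170 CPM (0.518 in males).

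The type 2 list, receptors, factors and targets of IL-4 and related signalling, had 4 of 11 higher and none lower (median 0.35). These were Ccl17, Ccl22 and Tnfrsf4, which other lists hold too, and Il21r, at 201 and 316 CPM (1.58, 1.27 to 1.96), and 1.25 in male members. The transcription factor of this pathway, Stat6, was at 118 and 78.7 CPM, a ratio of 0.668 (0.472 to 0.941) just short of the limit. Il4ra was at 79.6 and 102 CPM (1.28, 0.893 to 1.84).

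The migration and cytoskeleton list had none of 18 measured genes past either limit, and its median was 0.17 (-0.025 in male members). Ccr7 itself was at 4517 and 6566 CPM (ratio 1.45, interval 1.39 to 1.52), and 1.18 in males. Marcksl1, an actin-binding protein, and Adam8, a metalloprotease of migrating leukocytes, were at 1.38 and 1.40, and Fscn1 was at 1.17. The actin and thymosin genes Actb, Tmsb4x and Tmsb10 were at 1.12, 1.19 and 0.842. Antigen presentation was similar: of 17 MHC class II genes none was higher and 2 were lower (median 0.14), and of 18 class I genes 1 was higher and none lower (median 0.29). H2-Aa was at 11237 and 14644 CPM (1.30) and Cd74, the invariant chain, at 27698 and 31988 CPM (1.15). Tap2, a peptide transporter subunit, was the class I gene past the limit, at 179 and 269 CPM. The lower class II genes were H2-Ob, at 61.3 and 33.9 CPM, and the protease Ctsl, at 149 and 43.6 CPM, which reached 1.54 without members holding RNA of other lineages.

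Of the NF-kB list, 2 of 21 were higher and none lower, with a median of 0.25. Rel, a subunit known for Il12b induction in myeloid cells, was at 482 and 730 CPM (1.51, 1.32 to 1.74) and 1.54 in male members. Tnip3, a feedback inhibitor that binds A20, was at 36.8 and 116 CPM (3.16, 2.01 to 5.18). Relb, Nfkb1, Nfkb2 and Nfkbia lay at 0.98, 1.19, 1.20 and 1.01. The cDC1 gene list had 2 of 6 higher and none lower (median 0.30): Irf8 at 406 and 773 CPM (1.90, 1.65 to 2.21) and Batf3, its partner, at 155 and 234 CPM (1.51, 1.18 to 1.94). Within male members they were at 1.54 and 1.20, and the list median at -0.017. The surface markers Xcr1 and Clec9a had 3 and 10 UMIs in DMSO and 4 and 13 in STK and were not measured. The cDC2 list had 2 of 11 higher and none lower (median -0.18), Klf4, a transcription factor of the cDC2 that drive type 2 responses, and Il1r2, the decoy IL-1 receptor. The sign of that median depended on the members taken: it was 0.60 with 5 of 11 higher under the stricter gate and 0.82 with 6 higher in male members, but -0.56 with 1 higher and 3 lower without the deepest members.

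Type I interferon response genes were higher in part: 7 of 23 were higher and 2 lower (median 0.26), while the median of the same list was -0.47 in the cDC1 and -0.25 in the cDC2 gate, and -0.021 and -0.19 without the Siglech cells. In male members 12 of 23 were higher and 1 lower (median 0.94), and after thinning 2 were higher. Isg15, a ubiquitin-like protein, was at 714 and 1391 CPM (1.95, 1.75 to 2.18), and 3.38 in male members. Ifit1, Ifit2 and Ifit3, interferon-induced antiviral proteins, had ratios of 4.51, 3.12 and 3.11 from at most 67 UMIs each, and Rsad2, the antiviral enzyme viperin, was at 68.9 and 191 CPM (2.78, 1.98 to 3.96). Ifih1, the RNA sensor MDA5, was at 42.9 and 136 CPM, with 37.5% of the STK UMIs in 1 cell. Irf7, Bst2 and Ifi27l2a were not higher, at 0.74, 0.973 and 0.911, and Ifi205 and Stat2 were lower at 0.343 and 0.534. Without the deepest members the list median was -0.12, with 5 higher and 3 lower. Of the interferon-gamma list 3 of 14 were higher, Gbp2, Gbp3 and Ifi47, and 2 lower, Gbp8 and Serpina3g (median 0.31, and -0.097 without the deepest members).

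The promoters of 3 genes with high ratios are printed here because they show the letters through which NF-kB and interferon factors are known to act. They are the 250 bases before the start site, from RefSeq, build GRCm38.p6, read 5′ to 3′ on the gene's strand, at chr5:92348890-92349139 (minus strand) for Cxcl10, chr12:26456453-26456702 (minus) for Rsad2 and chr6:65590148-65590397 (plus) for Tnip3. Capitals mark matches to the kappaB consensus or to the interferon-stimulated response element (GAAA, any 2 bases, GAAA) on either strand, and the 2 kappaB matches of Cxcl10 overlap.
Cxcl10: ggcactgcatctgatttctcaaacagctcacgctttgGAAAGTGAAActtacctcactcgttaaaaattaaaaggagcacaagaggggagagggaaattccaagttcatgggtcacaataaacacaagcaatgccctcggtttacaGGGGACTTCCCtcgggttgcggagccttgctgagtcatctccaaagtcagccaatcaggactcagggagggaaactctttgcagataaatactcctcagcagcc
Rsad2: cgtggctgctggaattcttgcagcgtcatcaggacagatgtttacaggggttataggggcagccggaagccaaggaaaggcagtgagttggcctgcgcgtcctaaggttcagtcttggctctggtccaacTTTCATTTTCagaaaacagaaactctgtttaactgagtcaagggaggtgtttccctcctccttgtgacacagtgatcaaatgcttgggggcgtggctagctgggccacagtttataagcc
Tnip3: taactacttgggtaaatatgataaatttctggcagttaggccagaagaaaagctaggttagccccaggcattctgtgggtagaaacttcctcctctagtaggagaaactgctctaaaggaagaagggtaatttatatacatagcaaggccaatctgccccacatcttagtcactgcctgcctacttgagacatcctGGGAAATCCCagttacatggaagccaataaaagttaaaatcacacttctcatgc
In Cxcl10 the response element begins 213 bases and the first kappaB match 104 bases before the start. In Rsad2 the response element begins 120 bases before the start and reads on the opposite strand. In Tnip3 a single kappaB match begins 54 bases before the RefSeq start, which lies inside the span that GENCODE gives the gene (chromosome 6, 65525313 to 65634040).

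Of the 12 genes with the highest ratios named by the rule, 11 had a promoter in the table: 3 held a kappaB match (Tnip3, Fosb and Cxcl10) and 2 a response element (Rsad2 and Cxcl10). Of the 11 matched among the 12 lowest, 1 held a kappaB match (Apom) and 1 a response element (Selenop). Over all 32851 promoters of the same length, 5.0% held the kappaB consensus and 2.98% the response element. A gene counted when any of its listed promoters held a match, whereas these shares are per promoter, so they are unlike measures. The heat shock element (GAA, any 2 bases, TTC, any 2 bases, GAA) was in 0 of the highest and 0 of the lowest genes. It was in 0.466% of all promoters. Of the 15 genes above the conventional gates, 9 had a promoter: 1 held a kappaB match (Mmp25), 1 a response element (Apol7c) and 0 the heat shock element. A match is a description of the letters and not of binding.

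The other genes with the highest ratios were of mixed roles. Il1rn, the secreted antagonist of the IL-1 receptor, was at 39.8 and 150 CPM (3.77, 2.46 to 6.0), so it and Il1b were both higher in STK. Sowahc was at 35.2 and 111 CPM (3.16), with a UMI in 20.5% and 54.4% of the members and in 1.69% and 1.76% of T cells. Nr4a2, an early-response nuclear receptor, was at 78.1 and 213 CPM (2.73) and Vps37b, of the vesicle sorting machinery, at 36.8 and 113 CPM (3.06). AA467197 was at 56.7 and 171 CPM (3.01) and Ifi47, an interferon-gamma GTPase, at 42.9 and 121 CPM (2.82), with 1.24 without the deepest members. For Sowahc, Vps37b and Nr4a2 the ratio stayed at or above 1.87 under each alternative tried.

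Heat shock genes formed the list furthest below: 12 of 22 measured genes of the heat shock and dissociation stress list were lower and 2 higher, with a median of -0.66. The conventional gates had the same sign and size, at -0.66 in cDC1 and -0.71 in cDC2, and at -0.60 and -0.66 without the Siglech cells, so the difference was shared with other dendritic cells of these libraries. Hspa1a (chromosome 17, 34969190 to 34972156) was at 675 CPM in DMSO and 12.1 CPM in STK, 55.8 times lower, and Hspa1b (34956436 to 34959238) at 684 and 4.84 CPM, 141 times lower. The counts were 441 and 10 UMIs for Hspa1a and 447 and 4 for Hspa1b. The STK counts are close to the floor of 3 UMIs, so the size of both folds is imprecise. These inducible HSP70 genes are near-identical copies, and how reads were shared out between them is uncertain. Hspa1a had a UMI in 41 of 78 DMSO and 7 of 90 STK members, and in 19.8% and 2.0% of T cells, and the groups overlapped at 0. The chaperones Hsph1, Hspd1 and Dnajb1 were 3.40, 2.28 and 2.32 times lower.

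Early-response genes in that list split. Jun, Atf3 and Zfp36, a destabiliser of cytokine RNA, were lower at 0.432, 0.453 and 0.586, from 328, 441 and 2992 CPM in DMSO to 142, 200 and 1752 CPM in STK. Fosb and Btg2 were higher, at 38.3 and 126 CPM (3.29, 2.11 to 5.32) and at 366 and 753 CPM (2.06, 1.77 to 2.40). Fos and Dusp1 were between the limits at 0.682 and 0.723, and Egr1 at 0.932.

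Of the 12 genes with the lowest ratios besides Hspa1a, Hspa1b and Hsph1, several are genes of liver or monocytes, though the ranking left out a fixed set of hepatocyte genes. Kng1, which encodes kininogen, Apom, an apolipoprotein, and Gcat, a threonine-degrading enzyme, were at 104, 150 and 103 CPM in DMSO and at 17.0, 25.4 and 27.9 CPM in STK, with 32.8% to 39.7% of the DMSO UMIs in 1 cell. Without members holding RNA of other lineages Apom was at 1.28. Ly6c2 was at 204 and 31.5 CPM, and Cebpb, a monocyte and acute-phase factor, at 196 and 58.1 CPM. Tmem97, a sterol-regulated membrane protein, and Selenop, the plasma selenium carrier, were at 106 and 130 CPM in DMSO and 21.8 and 37.5 CPM in STK. The glycolysis and hypoxia list behaved likewise, with 4 of 15 lower (Bnip3, Tpi1, Pfkl and Ldha) and none higher (median -0.39), and its median was -0.072 once the 9 members rich in hepatocyte or tumour RNA were left out.

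The genes of the study's subject were measured in part. Gpr132 (ENSMUSG00000021298, chromosome 12, 112850873 to 112868228, minus strand), a proton- and lipid-sensing receptor, was at 199 CPM in DMSO and 363 CPM in STK, a ratio of 1.82 (1.48 to 2.26), and 1.53 (1.09 to 2.13) in male members. The count per cell ran from 0 to 6 with a median of 1 in DMSO and from 0 to 9 with a median of 3 in STK. A UMI was found in 73.1% and 93.3% of members, and after thinning in 41.9% and 51.1%. Thinned T cells had one in 15.3% and 35.4%, and the ratio in the gates without Siglech cells was 1.49 in cDC1 and 1.73 in cDC2, so a higher Gpr132 in STK was seen outside the members too. Its relative Gpr65 was at 36.8 and 67.8 CPM (1.85, 1.13 to 3.11).

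Soat1 had 19 UMIs in DMSO and 14 in STK, under the minimum of 40, with a ratio of 0.583 (0.270 to 1.23), so a difference was not detectable at this depth. Soat2, its liver and gut paralog, had 4 and 0 UMIs. The list of sterol enzymes and oxysterol receptors had 3 of 8 higher and none lower (median 0.62): Gpr132, Gpr65 and Dgat1. Dgat1, which esterifies diacylglycerol, was at 13.8 and 42.4 CPM (3.08, 1.45 to 7.28), and its ratio in male members was 0.997. Gpr183, the receptor for 7-alpha,25-dihydroxycholesterol that guides dendritic cells, was at 317 and 274 CPM (0.863). Of the liver X receptor targets 1 of 7 was higher, Smpdl3a at 45.9 and 84.8 CPM, and 3 were lower, Apoe, Apoc2 and Scd2 (median 0.13, and -0.37 in male members). Apoe and Apoc2 are also liver products, and without members holding RNA of other lineages they were at 0.625 and 1.04.

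**Figure D5:**
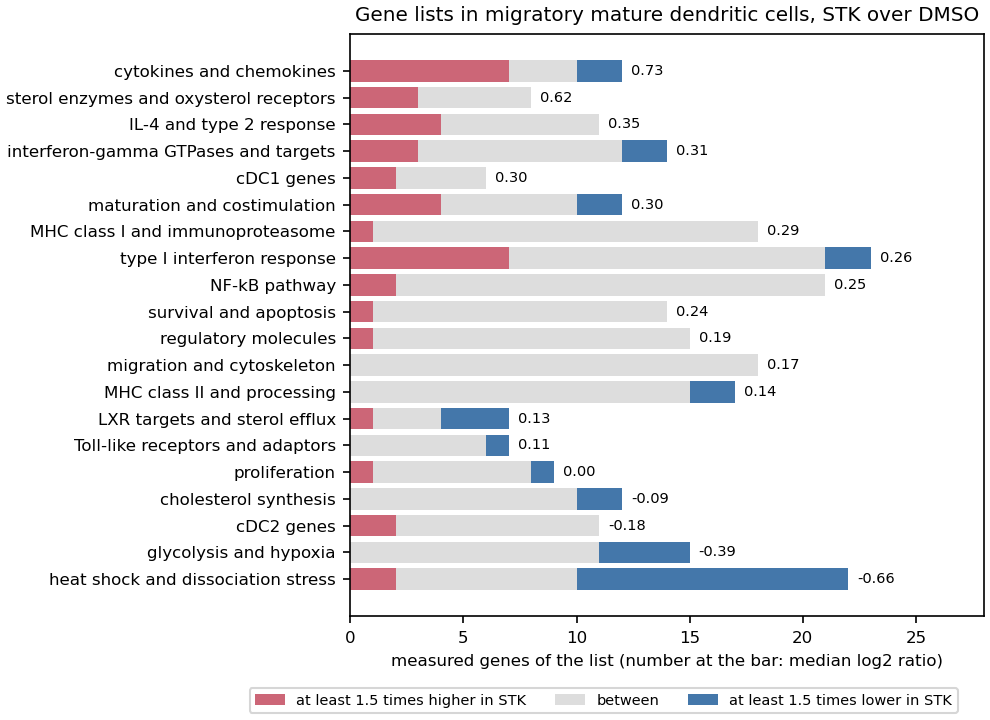
Number of measured genes of each list in the members that were at least 1.5 times higher in STK (red), at least 1.5 times lower (blue) or between (grey), with the median log2 ratio at the end of the bar. Cytokines and chemokines have 7 of 12 higher and a median of 0.73, and heat shock and dissociation stress 12 of 22 lower and a median of -0.66, beside 6.16% higher and 10.5% lower over all genes.

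The remaining lists described here had at most 1 gene past each limit. Of 14 survival and apoptosis genes, 1 was higher, the pro-apoptotic Bcl2l11 at 19.9 and 43.6 CPM (2.19, 1.13 to 4.50), and none lower (median 0.24). The anti-apoptotic Bcl2a1b and Mcl1 were at 1585 and 616 CPM in DMSO and 2038 and 682 CPM in STK. Of 7 Toll-like receptor genes and adaptors, none was higher and Irak2 was lower (median 0.11), though Irak2 was at 1.68 after thinning. Of 9 proliferation genes, Hmgb2 was higher and Ube2c lower (median 0.0025), and Mki67 had 20 and 30 UMIs. Neither call was stable: Hmgb2 was at 0.972 in male members. Ube2c was at 1.96 with the looser gate and 5.62 without members rich in hepatocyte or tumour RNA.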

How the data were processed

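CD45+ cells of liver tumours were sorted and made into 2 droplet libraries with a 5′ kit, per the labels' protocols. The values the authors deposited are counts of UMIs, not normalized, written by Cell Ranger 6.0.2 per the file headers, with GRCm38/mm10 as the build per the submitters' processing notes. The annotation release is not given in the sources used here. A barcode was kept if it had 500 or more UMIs, 250 or more genes and no more than 10% of UMIs from mitochondrial genes. UMIs were summed over members per library and scaled to CPM, and ratios carry exact conditional binomial intervals at 95%. Gene coordinates are from GENCODE. The members, lists and rules were chosen with earlier results of these data known. By a fixed rule, the genes named were the rule and marker genes, Gpr132, Soat1 and Soat2, the 12 highest and 12 lowest ratios at 100 CPM and 50 UMIs or more, the 4 furthest of each list, all genes at 100 CPM in the first 6 lists, and the 15 highest and 10 lowest against other dendritic cells. The ranking of the highest and lowest ratios left out sex-linked, hepatocyte, haemoglobin, mitochondrial, ribosomal, receptor and immunoglobulin segment and gene-model genes. The gates without Siglech cells, the splits by Il12b and subset markers and the named genes outside the fixed rule were chosen after the values were seen.

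Doublets were scored with Scrublet (scanpy 1.11.5). Its automatic threshold called 217 DMSO cells and 0 STK cells, so a common score of 0.25 was used instead, chosen after seeing that. It called 4 DMSO and 1 STK members, which were kept and left out as an alternative. Other alternatives were a stricter and a looser gate, male cells only (Y-linked RNA and no Xist), a limit of 5% mitochondrial UMIs, members above the 95th percentile of depth left out, those with RNA of other lineages left out (3 or more UMIs of B, plasma, NK or neutrophil markers or of plasmacytoid markers other than Bst2 and Tcf4, or 20 of hepatocyte or tumour markers, leaving 64 and 71 members), the mean of per-cell CPM, scaling by the median ratio, CPM without abundant gene classes, thinning to 2000 UMIs and other UMI minimums. The ratio script was tested on simulated sums with counting error alone, so that test does not cover spread between cells or UMIs concentrated in few cells. Python 3.11.15 with numpy 2.4.6, scipy 1.17.1 and pandas 2.3.3 was used. The cholesterol synthesis genes are not described here.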

Additional observations from a re-analysis of the deposited data

Results flagged for a closer look

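In 4 genes, male and female members differed in opposite directions between STK and DMSO, each with a counting interval that excluded 1 on its own side of 1. The difference between the sexes was not tested, and the female DMSO side rests on 5 cells. Ccl22 had a ratio of 0.816 in male members (352 and 144 UMIs) and 2.34 in female members (36 and 474 UMIs). Ccl4, a chemokine that attracts immune cells, had 3.16 in males (63 and 100 UMIs) and 0.13 in females (74 and 54 UMIs). Cd200 had 0.518 in males (77 and 20 UMIs) and 2.7 in females (5 and 76 UMIs). Icosl had 0.361 in males (94 and 17 UMIs) and 6.58 in females, where DMSO had 1 UMI and STK 37.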

How the results depend on the processing

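No paired analysis was possible because each group is 1 library. Depth limits what was measured: genes under 40 UMIs over both libraries, Soat1 among them, have no call. Of 299 alternative values for the 23 results that answer a comparison, 27 counted as moved: a member share ratio outside its counting interval (none), a gene count changed by over 1.5 times (12), or a list median outside the interval that the order of the list's genes gives (15). That interval is wide for lists of few or spread genes, so larger shifts can lie inside it. The count of genes higher in STK (254) was 167 without the deepest members, 159 without members holding RNA of other lineages, 58 after thinning and 135 with a minimum of 100 UMIs. The count lower (435) was 210, 154, 69 and 183 under the same 4 settings, 153 in male cells only, 155 without members with 20 hepatocyte or tumour UMIs, 276 with at least 10 Ccr7 UMIs and 781 with no minimum. The settings on 10 Ccr7 UMIs and on 20 hepatocyte or tumour UMIs were chosen after seeing the data. Fewer cells, UMIs or tested genes entered several of these.

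Over all alternatives, the median kept its sign for 6 of 20 lists, cytokines, type 2, MHC class I, sterol enzymes and heat shock among them, and turned in at least 1 for 14. It shifted by more than a ratio of 1.5 in 5 cases: cDC2 genes from -0.18 to 0.60 (stricter gate) and 0.82 (male cells), type I interferon from 0.26 to 0.94 (male cells), and proliferation from 0.0025 to 0.85 (looser gate) and -0.63 (male cells). By the interval, medians moved for 9 lists. Migration and cytoskeleton went from 0.17 to 0.075 without the deepest members, 0.075 without RNA of other lineages, -0.025 in male cells and 0.035 without members rich in hepatocyte RNA. Maturation and costimulation went from 0.30 to -0.083 in male cells. After thinning, regulatory molecules went to -0.11 and the NF-kB pathway to -0.057. Without the deepest members, MHC class II went to -0.089, cDC2 genes to -0.56 and type I interferon to -0.12, and the latter 2 went to -0.45 and -0.0082 with the mean of per-cell CPM. Glycolysis and hypoxia went to 0.044 without RNA of other lineages and -0.072 without hepatocyte-rich members.

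Of 1774 alternative values for 137 gene ratios, 18 lay on the other side of 1 from a called ratio, and the cause was not tested. Without RNA of other lineages these were Apoc2 at 1.04, Apom at 1.28, Bnip3 at 1.41, Ctsl at 1.54 and Ube2c at 3.84. Without the deepest members they were Bnip3 at 1.06 and Tnf at 1.01, and without hepatocyte-rich members Bnip3 at 1.10 and Ube2c at 5.62. In male cells they were Ccl22 at 0.816, Cd70 at 0.222, Dgat1 at 0.997, Hmgb2 at 0.972, Pfkl at 1.10 and Serpinb9 at 0.997. After thinning they were Irak2 at 1.68 and Ube2c at 1.12, and with the looser gate Ube2c at 1.96. Of 68 called genes, 66 kept their call with scaling by the median ratio, 45 of 64 in male cells and 31 of 66 after thinning.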
